A study of Sus scrofa with 6 samples.

Results

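Complex I (NADH:ubiquinone oxidoreductase) is the entry point of electrons from NADH into the mitochondrial respiratory chain. Its genes were examined here by bulk RNA sequencing of pig cerebral cortex. The members were the protein-coding genes whose name in the files begins with NDUF: 40 of 28965 genes listed (20288 of them protein-coding), made up of 32 subunit names and 8 assembly factors (NDUFAF). The cortex came from 6 male pigs aged 140 days, with 1 library per animal. In 3 animals a deletion of UBE3A (Ubiquitin-protein ligase E3A) had been inherited from the mother, and the other 3 were wildtype. No further allele or treatment is named in the labels, which also leave out the extent of the deletion.

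Complex I is L-shaped. Its matrix arm binds NADH, carries the flavin and iron-sulfur clusters and holds the quinone site, and its membrane arm pumps protons. The catalytic core is shared with bacteria and is built from nuclear subunits in the matrix arm and from the mitochondrially encoded ND subunits in the membrane. Accessory subunits surround this core, and assembly factors help to build the complex and then leave it. Neurons depend heavily on oxidative phosphorylation, and inherited defects of complex I often affect the brain.

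Reads assigned to exons ranged from 21802529 to 28109327 in the deletion libraries and from 19796762 to 28126173 in the wildtype libraries. UBE3A had 165 to 330 reads in the deletion libraries and 1823 to 2723 in the wildtype libraries, so each library matched its genotype label (log2 fold change -3.32, SE 0.17, edgeR adjusted p = 0.000452). The 6 neuronal markers summed to between 5774 and 7601 CPM in the deletion libraries and between 5942 and 6994 CPM in the wildtype libraries. CPM gives the reads of a gene relative to the library's reads in genes with enough reads to be tested, scaled as described below. Oligodendrocyte markers (6 genes) varied widely, from 9200 to 23003 CPM across the deletion libraries and from 9879 to 20193 CPM across the wildtype libraries. The share of mitochondrially encoded mRNA among the reads was 13.7%, 16.9% and 16.1% in deletion replicates 1 to 3 and 13.1%, 11.2% and 13.6% in wildtype replicates 1 to 3. In whole tissue, fewer cells of a type and less RNA per cell cannot be told apart.

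The 40 complex I genes together took 0.256%, 0.298% and 0.301% of the reads in deletion replicates 1 to 3, against 0.262%, 0.242% and 0.283% in wildtype replicates 1 to 3. All 40 had enough reads to be tested, with 122 to 5367 reads per library for the subunits and 70 to 1059 for the assembly factors. CPM levels above and below are scaled by the trimmed mean of M-values (TMM) and compare 1 gene between libraries. Levels between genes are given as the authors' RPKM, which divides by exon length.

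Per length, the median subunit transcript was far more abundant than the median assembly factor transcript, and the ranges overlapped. The mean RPKM over the 6 libraries ranged from 2.34 to 278 among the 32 subunit names (median 44.2) and from 1.30 to 50.4 among the 8 assembly factors (median 3.41). NDUFA4, long listed with complex I and now placed in cytochrome c oxidase (complex IV), stood first at 281 ± 27.7 RPKM in deletion and 276 ± 35.2 RPKM in wildtype libraries (SD, n = 3 each). NDUFB4 and NDUFB9, accessory subunits of the distal membrane arm, followed at 108 and 107 RPKM, and their libraries overlapped. At the low end were the assembly factor NDUFAF2 (1.30 RPKM), NDUFA4L2 (2.34 RPKM), a hypoxia-inducible relative of NDUFA4, and the assembly factor NDUFAF7 (2.66 RPKM). NDUFAF8 had the highest RPKM of the assembly factors, at 48.4 ± 13.9 RPKM in deletion and 52.3 ± 3.91 RPKM in wildtype libraries (SD, n = 3 each), and the next, NDUFAF1, stood at 7.67 RPKM. The RPKM of NDUFAF8 rests on the shortest exon length of all members, and in CPM, which leaves length out, it (9.87 to 18.6) was not the highest assembly factor. The RPKM of NDUFS8 (7.13) and of NDUFB2 (4.03) rest on the longest exon lengths among the members, so these low values depend on the annotation as much as on the reads.

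**Figure D1:**
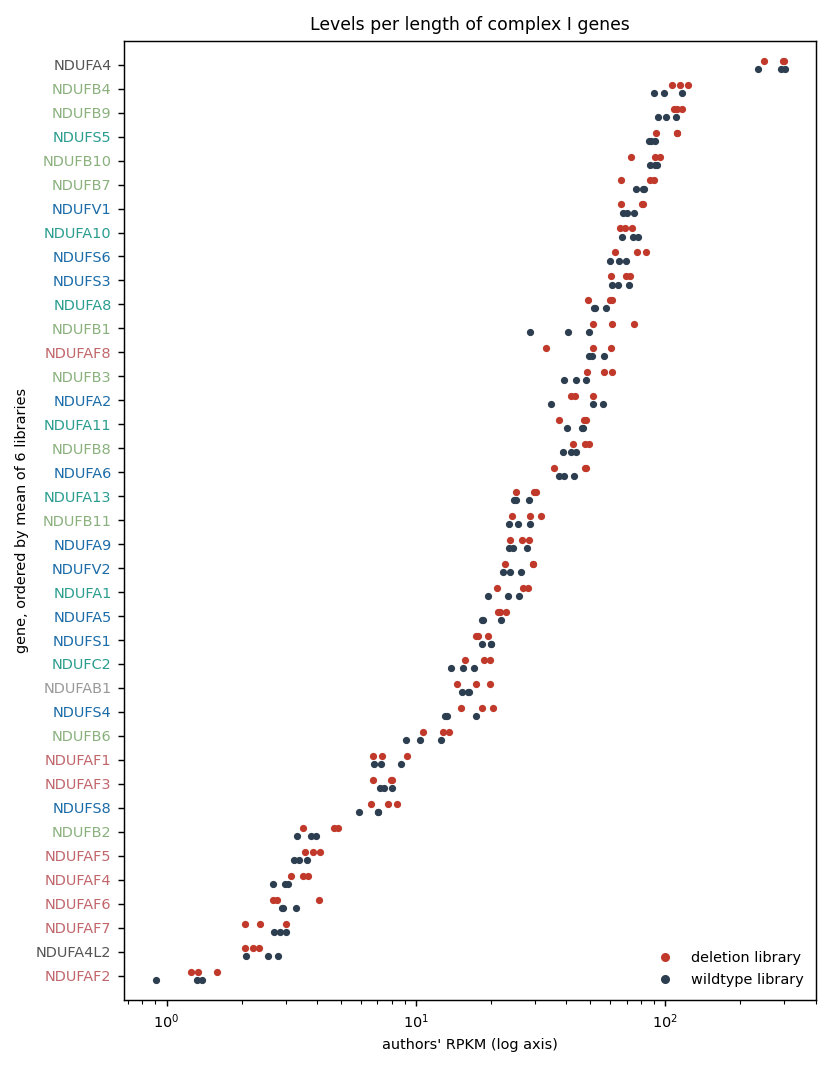
The authors' RPKM (log axis) of 39 complex I genes in the 3 deletion libraries (upper points) and the 3 wildtype libraries (lower points), ordered by the mean of all 6. Name colours give the place in the complex (blue, matrix arm; dark green, proximal membrane arm; light green, distal membrane arm; light grey, both arms; dark grey, outside complex I; red, assembly factors), with NDUFA4 at the top (278) and NDUFAF2 at the bottom (1.30).

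The question was whether loss of maternal UBE3A went with a different level of these transcripts. No member passed edgeR's quasi-likelihood test at an adjusted p of 0.05 over 14458 genes, where 1 gene (0.00692%) passed, UBE3A itself. DESeq2 and limma-voom also called 0 of the 40, where they called 0.145% and 0.00692% of all genes. At an unadjusted p under 0.05 there were 3 of 32 subunits (NDUFB1, NDUFB3 and NDUFS5) and 1 of 8 assembly factors (NDUFAF4), all with higher means in the deletion cortex. Among all tested genes, 3.33% were higher at that level and 3.89% lower, 7.23% in all. The number of subunits at that level depended on the method: it was 4 with DESeq2, where 2.8% of all genes were higher, 15 with limma-voom (7.14%), 7 without a filter on low counts (2.86%) and 8 with the prefix of the animal number as a covariate (3.48%). Deletion replicate 1 and wildtype replicate 1 shared a prefix, and the other animals shared another.

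Most subunits had small differences of the same sign. Of the 32 subunits 28 had a log2 fold change above 0, with a median of 0.19 and a range from -0.10 to 0.72, whereas 50.5% of all tested genes lay above 0 with a median of 0.00. Of the 8 assembly factors 6 lay above 0, with a median of 0.11 and a range from -0.14 to 0.31. The 95% intervals of 29 of the 32 subunits and 7 of the 8 assembly factors included 0. For 31 subunits and all 8 assembly factors the interval lay within a 2-fold difference in either direction, and for 25 and 6 of them within 1.5-fold. The exception to the 2-fold bound was NDUFB1.

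**Figure D2:**
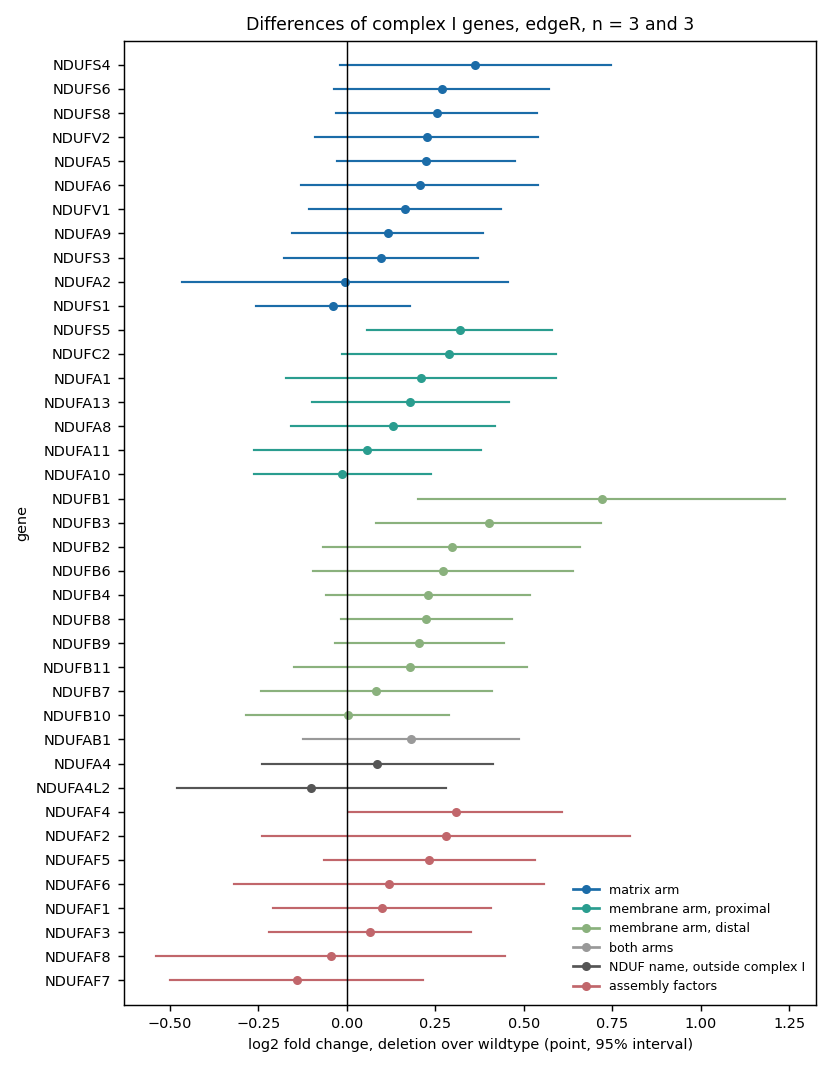
Log2 fold change of 39 complex I genes, deletion over wildtype, with 95% intervals from edgeR (3 libraries per group), grouped by place in the complex. Points lie mostly between 0 and 0.4, and the intervals of NDUFB1, NDUFB3, NDUFS5 and NDUFAF4 alone lie wholly above 0, without passing the adjusted threshold.

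As a group the subunits did not separate the genotypes library by library. Their mean log2(CPM + 0.5), relative to the wildtype mean, was -0.02, 0.27 and 0.30 in deletion replicates 1 to 3 and 0.00, -0.14 and 0.14 in wildtype replicates 1 to 3. Deletion replicates 2 and 3 were thus above every wildtype library, and deletion replicate 1 lay within the wildtype range. Both of those high libraries exceeded all wildtype libraries for 27 of the 32 subunits, as they did for 16.9% of all tested genes, while deletion replicate 1 was within the wildtype range for 25 (48.8% of all tested genes), above it for 4 and below it for 3. Wildtype replicate 2 was the lowest library for 22 subunits and for 20.7% of all tested genes. These libraries were singled out after the subunit means were seen, so the counts are a description. Without deletion replicate 1 the median log2 fold change of the subunits was 0.28 and 15 had an unadjusted p under 0.05. At that level 5.42% of all genes were higher, and 14.1% lay there in either direction. Without deletion replicate 2 the median was 0.12 and 1 subunit was at that level (2.11% of all genes higher, 4.56% in either direction). Without deletion replicate 3 the median was 0.15, also with 1 (1.58% higher, 3.26% in either direction). Leaving out wildtype replicate 1 gave 0.18 and 3 subunits (2.06% higher, 3.97% in either direction). For wildtype replicate 2 it was 0.12 and 1 (2.94% and 6.62%), and for wildtype replicate 3 it was 0.27 and 9 (4.66% and 9.17%).

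**Figure D3:**
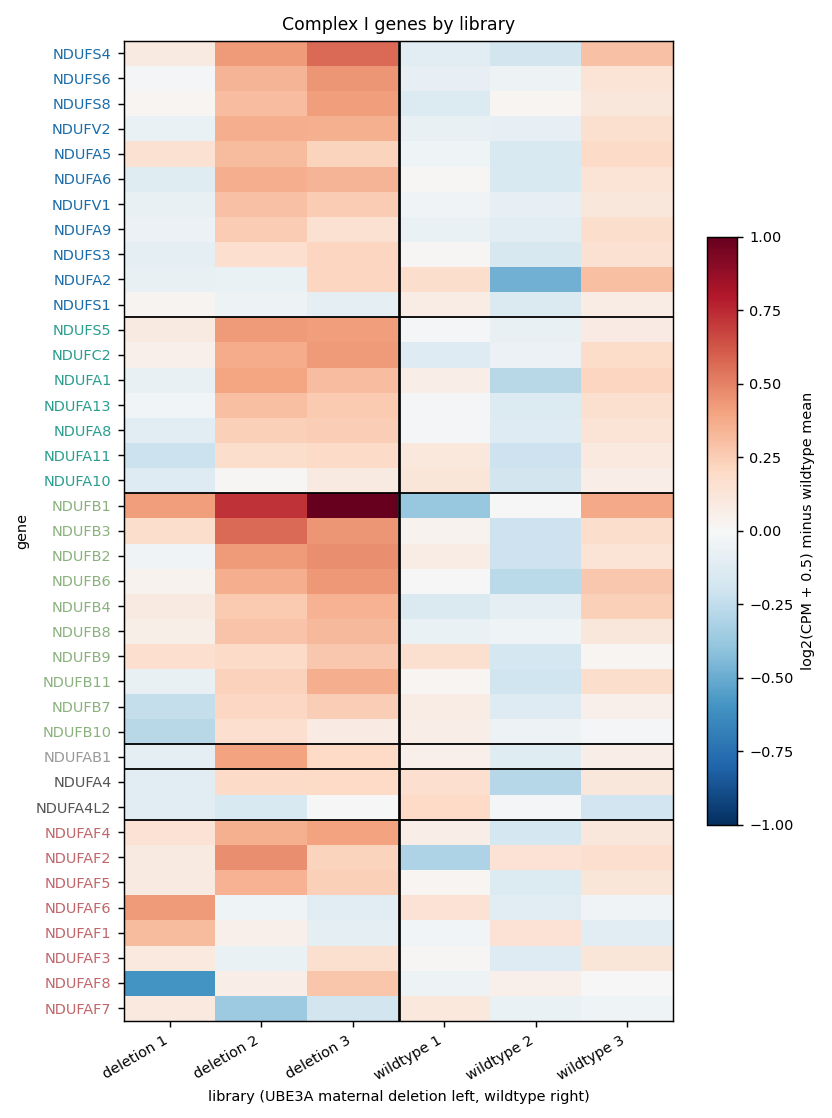
Log2(CPM + 0.5) of 39 complex I genes in each library minus the gene's mean in the 3 wildtype libraries, deletion libraries left and wildtype libraries right. Most subunits are high (red) in deletion replicates 2 and 3 and low (blue) in wildtype replicate 2, and deletion replicate 1 resembles the wildtype libraries.

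Other measures were set beside this pattern across libraries, and not all of them followed it. Exon reads numbered 28109327, 22297177 and 21802529 in deletion replicates 1 to 3 and 23823287, 28126173 and 19796762 in wildtype replicates 1 to 3. Wildtype replicate 2 and deletion replicate 1 were thus the deepest libraries and had the lowest subunit means. The part of depth in the result was not tested. The share of mitochondrially encoded mRNA was highest in deletion replicates 2 and 3 and lowest in wildtype replicate 2, as the subunit means were. With the mitochondrially encoded genes removed before scaling, 27 of 32 subunits lay above 0 and the median was 0.19. Transcript length also went with the difference: among genes divided into 4 equal bins by exon length, 59.04% of the shortest bin had a log2 fold change above 0 (median 0.05), against 43.68% of the longest (median -0.03). The shortest bin held 23 of the 32 subunits, of which 20 lay above 0 with a median of 0.18. With the length trend removed in each library, 25 of 32 subunits lay above 0 and the median was 0.15. Oligodendrocyte markers, of which 6 of 6 had a log2 fold change above 0 (median 0.32), summed to 23003, 9200 and 18276 CPM in deletion replicates 1 to 3 and to 10078, 20193 and 9879 CPM in wildtype replicates 1 to 3. With the mean of these markers as a covariate, a setting added later with the data in view, the subunit median was 0.25 and 16 had an unadjusted p under 0.05, where 5.43% of all genes were higher at that level, and still 0 passed over all genes. Neuronal markers, of which 1 of 6 lay above 0 (median -0.13), had their lowest mean in deletion replicate 1. Of these, 1 was lower at an unadjusted p under 0.05, where 3.89% of all genes were lower. Their summed CPM went the other way, with a mean of 6854 in the deletion and 6534 in the wildtype libraries. Astrocyte markers had 3 of 6 above 0 (median 0.03), and 1 was higher at an unadjusted p under 0.05, where 3.33% of all genes were higher. Choroid plexus markers had 4 of 4 above 0 (median 1.05), 2 of them at an unadjusted p under 0.05 (3.33% of all genes were higher). They summed to 55.9, 38.6 and 28.6 CPM in deletion replicates 1 to 3. In wildtype replicates 1 to 3 the sums were 29.3, 27.2 and 25.6 CPM. Microglial markers had 0 of 6 above 0 (median -0.19) and summed to 82.9, 205 and 115 CPM in deletion replicates 1 to 3 and to 141, 231 and 117 CPM in wildtype replicates 1 to 3. The part of neuronal, astrocyte, choroid plexus and microglial markers in the result was not tested.

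The core subunits of the matrix arm, which carry out catalysis, had the smallest median difference of the groups of complex I subunits. Of the 6 measured, 0 had an unadjusted p under 0.05, 5 lay above 0, and the median log2 fold change was 0.13. NDUFS1, the large iron-sulfur subunit, measured 114, 108 and 105 CPM in the deletion libraries and 118, 101 and 118 CPM in the wildtype libraries (log2 fold change -0.04, SE 0.09). Its groups overlapped. NDUFV1, which binds the flavin and NADH, had 126, 163 and 159 CPM in the deletion libraries against 130, 126 and 144 CPM in the wildtype libraries (0.16, SE 0.12). Its partner NDUFV2 had 65.8, 89.2 and 88.4 CPM in the deletion libraries against 65.5, 65.3 and 77.3 CPM in the wildtype libraries (0.23, SE 0.14). For both, deletion replicates 2 and 3 were high and replicate 1 was at the wildtype level.

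Among the other core subunits, NDUFS3 measured 71.5, 85.9 and 88.4 CPM in the deletion libraries and 76.9, 68.1 and 84.6 CPM in the wildtype libraries (log2 fold change 0.10, SE 0.12). NDUFS8, which holds iron-sulfur clusters close to the quinone site, had 77.2, 94.4 and 102 CPM in the deletion libraries and 69.4, 77.3 and 82.6 CPM in the wildtype libraries (0.25, SE 0.12, edgeR adjusted p = 0.685). The groups overlapped in each of the 6 core subunits.

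Of the accessory subunits of the matrix arm, NDUFS4 had the largest difference. This subunit helps to fix the NADH-binding module to the rest of the arm, and its loss causes Leigh syndrome in people. It measured 52.6, 66.9 and 73.7 CPM in the deletion libraries and 45.8, 43.7 and 60.8 CPM in the wildtype libraries (log2 fold change 0.36, SE 0.17, edgeR adjusted p = 0.685), and the groups overlapped through deletion replicate 1. The zinc-binding subunit NDUFS6 had a log2 fold change of 0.27. NDUFA5 stood at 0.22, NDUFA6, to which an acyl carrier protein docks, at 0.21, and NDUFA9, which binds NADPH, at 0.12. NDUFA2 stood at 0.00 with wide variation among wildtype libraries, at 63.8, 64.3 and 78.3 CPM in deletion and 75.9, 48.2 and 83.1 CPM in wildtype. Over the whole matrix arm 10 of 12 subunits lay above 0 and none had an unadjusted p under 0.05.

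In the proximal membrane arm, which joins the matrix arm, NDUFS5 stood out. NDUFS5, a small protein on the intermembrane-space face, had 69.2, 87.6 and 87.0 CPM in the deletion libraries and 64.7, 61.9 and 68.8 CPM in the wildtype libraries. Every deletion library was above every wildtype library, by a narrow margin for deletion replicate 1 (log2 fold change 0.32, SE 0.11, edgeR adjusted p = 0.683). NDUFC2 measured 63.9, 80.2 and 83.3 CPM in the deletion libraries against 56.4, 59.5 and 70.3 CPM in the wildtype libraries (0.29, SE 0.13), with overlap. The log2 fold changes of the other members here were 0.21 for NDUFA1, a small membrane protein, 0.18 for NDUFA13, also known as GRIM-19, 0.13 for NDUFA8, 0.06 for NDUFA11 and -0.01 for NDUFA10. Thus 6 of 7 lay above 0 and 1 had an unadjusted p under 0.05.

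All 10 subunits of the distal membrane arm had log2 fold changes above 0, with a median of 0.23. NDUFB1, a small accessory subunit with a membrane helix, had the largest log2 fold change of all members. It measured 19.7, 24.4 and 29.7 CPM in the deletion libraries and 11.1, 14.6 and 19.1 CPM in the wildtype libraries. The groups did not overlap, but deletion replicate 1 and wildtype replicate 3 lay close together (log2 fold change 0.72, SE 0.22, 95% interval 0.20 to 1.24, edgeR adjusted p = 0.683). In the authors' deposited table NDUFB1 had a fold change of 1.65 with an adjusted p of 0.235, the lowest among the 40 members there. That table lists 0 members at an adjusted p under 0.05, and 27 of its 26846 genes in all.

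NDUFB3, another small membrane subunit, had 54.03, 71.2 and 65.2 CPM in the deletion libraries and 48.96, 41.4 and 53.98 CPM in the wildtype libraries (log2 fold change 0.40, SE 0.14, edgeR adjusted p = 0.683). Deletion replicate 1 and wildtype replicate 3 were all but equal, so the separation is slight. NDUFB9, which like NDUFA6 docks an acyl carrier protein, had 132, 134 and 142 CPM in the deletion libraries and 131, 104 and 119 CPM in the wildtype libraries (0.20, SE 0.10), again with groups just apart. NDUFB4 measured 70.2, 78.9 and 83.9 CPM in the deletion libraries against 59.6, 61.5 and 77.6 CPM in the wildtype libraries (0.23, SE 0.13), with overlap. For the remaining distal subunits the log2 fold changes were 0.30 for NDUFB2, 0.27 for NDUFB6, 0.23 for NDUFB8, 0.18 for NDUFB11, 0.08 for NDUFB7 and 0.00 for NDUFB10. Over all 32 subunits the groups did not overlap, deletion higher, in 4 (NDUFB1, NDUFB3, NDUFB9 and NDUFS5) and deletion lower in 0. Among all tested genes these shares were 6.88% and 7.0%.

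NDUFAB1, the acyl carrier protein that sits in both arms, had 80.4, 114 and 98.9 CPM in the deletion libraries and 89.2, 78.9 and 90.2 CPM in the wildtype libraries (log2 fold change 0.18, SE 0.13). NDUFA4 measured 186, 230.4 and 231 CPM in the deletion libraries and 226, 165 and 218 CPM in the wildtype libraries (0.09, SE 0.14). NDUFA4L2 had 6.51, 6.29 and 7.08 CPM in the deletion libraries and 8.17, 6.99 and 6.12 CPM in the wildtype libraries (-0.10, SE 0.17). The groups overlapped in all 3 genes, and without NDUFA4 and NDUFA4L2 the median of the remaining 30 subunits was 0.21.

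Across libraries the assembly factors were ordered differently from the subunits. Their summed level was 123, 122 and 124 CPM in deletion replicates 1 to 3 and 115, 112 and 116 CPM in wildtype replicates 1 to 3, so the groups did not overlap. That separation rested on NDUFAF1, which was highest in deletion replicate 1: without it the sums were 85.97, 91.3 and 96.0 CPM in the deletion libraries and 85.2, 79.0 and 87.8 CPM in the wildtype libraries, and the groups overlapped. The mean log2(CPM + 0.5) relative to wildtype was 0.08, 0.10 and 0.12 in the deletion libraries and -0.01, -0.03 and 0.04 in the wildtype libraries, and it too overlapped without NDUFAF1. Single factors nevertheless went different ways.

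NDUFAF4 and NDUFAF3 bind each other and act early, on the module that forms the quinone site. NDUFAF4 had 18.2, 21.2 and 21.9 CPM in the deletion libraries and 17.2, 14.5 and 17.8 CPM in the wildtype libraries, with groups just apart (log2 fold change 0.31, SE 0.13, edgeR adjusted p = 0.683). It was the 1 assembly factor of 8 with groups that did not overlap. Among all tested genes the groups did not overlap in 6.88% with deletion higher and in 7.0% with deletion lower. NDUFAF3 had 17.6, 15.7 and 18.5 CPM in the deletion libraries and 16.6, 14.97 and 17.96 CPM in the wildtype libraries (0.07, SE 0.12), with overlap, and the difference between these partners was not tested. NDUFAF5, which in human cells hydroxylates an arginine of NDUFS7, had 14.6, 17.7 and 16.4 CPM in the deletion libraries and 13.9, 12.5 and 15.001 CPM in the wildtype libraries (0.23, SE 0.13).

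NDUFAF8, the partner that stabilises NDUFAF5 in human cells, had 9.87, 15.97 and 18.6 CPM in the deletion libraries and 14.7, 15.8 and 15.2 CPM in the wildtype libraries. Deletion replicate 1 was its lowest library, and its log2 fold change was -0.05 (SE 0.21), with 0.18 when that library was left out. NDUFAF6 and NDUFAF1 showed the reverse and were highest in deletion replicate 1. NDUFAF6, which acts in early assembly, measured 9.91, 7.02 and 6.70 CPM in the deletion libraries and 8.05, 6.68 and 7.07 CPM in the wildtype libraries (0.12, SE 0.19). NDUFAF1, a member of the mitochondrial complex I intermediate assembly (MCIA) complex that builds part of the membrane arm, measured 37.5, 31.1 and 28.3 CPM in the deletion libraries and 29.4, 33.3 and 27.7 CPM in the wildtype libraries (0.10, SE 0.13). Without deletion replicate 1 their log2 fold changes were -0.083 for NDUFAF6 and -0.023 for NDUFAF1.

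NDUFAF7, a mitochondrial arginine methyltransferase in human cells, was the assembly factor with the most negative log2 fold change, at -0.14 (SE 0.16). It had 11.6, 8.35 and 9.52 CPM in the deletion libraries and 11.7, 10.4 and 10.5 CPM in the wildtype libraries, and the groups overlapped. NDUFAF2, a relative of the subunit NDUFA12, had the fewest reads of all members and measured 4.07, 5.41 and 4.50 CPM in the deletion libraries and 2.95, 4.23 and 4.31 CPM in the wildtype libraries (0.28, SE 0.23).

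Assembly factors without an NDUF name stayed closer to 0. Of 11 listed, 9 were tested, 6 lay above 0 and 3 below, with a median log2 fold change of 0.03, and 0 had an unadjusted p under 0.05. The MCIA partners of NDUFAF1 stood at -0.05 (ACAD9), 0.03 (ECSIT) and -0.09 (TMEM126B). The members of lowest p were NUBPL, which delivers iron-sulfur clusters, at 18.6 ± 1.05 CPM in deletion and 16.9 ± 0.949 CPM in wildtype (SD, n = 3 each, log2 fold change 0.14), and TMEM70 at 19.2 ± 3.67 CPM in deletion and 16.9 ± 1.83 CPM in wildtype (0.18).

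The mitochondrially encoded subunits of the same complex lay higher relative to wildtype than the nuclear ones. All 7 had log2 fold changes above 0, with a median of 0.36. In the main edgeR fit 5 had an unadjusted p under 0.05, where 3.33% of all genes were higher at that level, but 0 passed over all genes. ND6 did pass an adjusted p of 0.05 in the alternative setting where its adjusted p was lowest. The most extreme were ND6 (0.73, SE 0.14) and ND5 (0.41, SE 0.13), each with an edgeR adjusted p of 0.683, and ND6, whose gene lies opposite others, is uncertain since no source here says whether counting used strand. Summed nuclear subunit CPM came to 7.41%, 7.11% and 7.32% of summed mitochondrial complex I CPM in deletion replicates 1 to 3 and to 8.31%, 8.46% and 8.35% in wildtype replicates 1 to 3. This ratio needs no scaling between libraries, and the groups did not overlap in it, deletion replicate 1 included. The nuclear subunits of complexes II to V gave 14.7%, 13.8% and 14.1% in the deletion libraries against 17.4%, 17.9% and 16.7% in the wildtype libraries, so the lower ratio was not confined to complex I.

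Nuclear complex I was also set beside the other nuclear respiratory genes and the mitochondrial ribosome. Complexes II to V had 25 of 33 tested subunits above 0, with a median of 0.09, and mitochondrial ribosomal proteins 54 of 67, with a median of 0.15. The lowest p in these lists belonged to COX7C (log2 fold change 0.32) and ATP5PF (0.24), and to MRPS14 (0.44) and MRPL40 (0.31). In these lists too deletion replicates 2 and 3 were the highest libraries and deletion replicate 1 was within the wildtype range. For the sums, the 32 subunit names include NDUFA4 and NDUFA4L2, and complexes II to V are 34 of 44 listed genes. Summed CPM of the 32 names was 50.5%, 51.4% and 52.0% of that of complexes II to V in deletion replicates 1 to 3. In wildtype replicates 1 to 3 it was 47.9%, 47.3% and 49.98%. The groups did not overlap, although the margin between deletion replicate 1 and wildtype replicate 3 was small. Against mitochondrial ribosomal proteins the groups did overlap. There the percentage was 117.4, 121.1 and 122.4 in deletion replicates 1 to 3 and 121.3, 114.2 and 120.6 in wildtype replicates 1 to 3. Within complex I, the distal membrane arm took 24.8%, 24.9% and 25.4% of subunit CPM in the deletion libraries and 24.1%, 24.2% and 23.98% in the wildtype libraries. For the share of the core subunits in subunit CPM the groups overlapped.

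**Figure D4:**
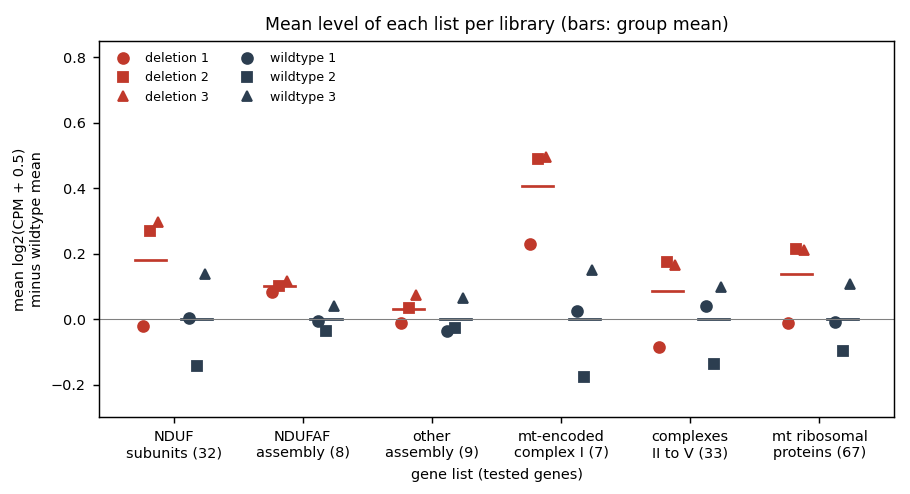
Mean log2(CPM + 0.5) of the tested genes of each list per library, relative to the wildtype mean (points, deletion left and wildtype right of each pair; bars, group means). Deletion replicates 2 and 3 are high for the nuclear lists of subunits and of ribosomal proteins, and only the NDUFAF and mitochondrially encoded lists, of the 6 shown, have groups that do not overlap, the NDUFAF list only with NDUFAF1 in it.

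**Figure D5:**
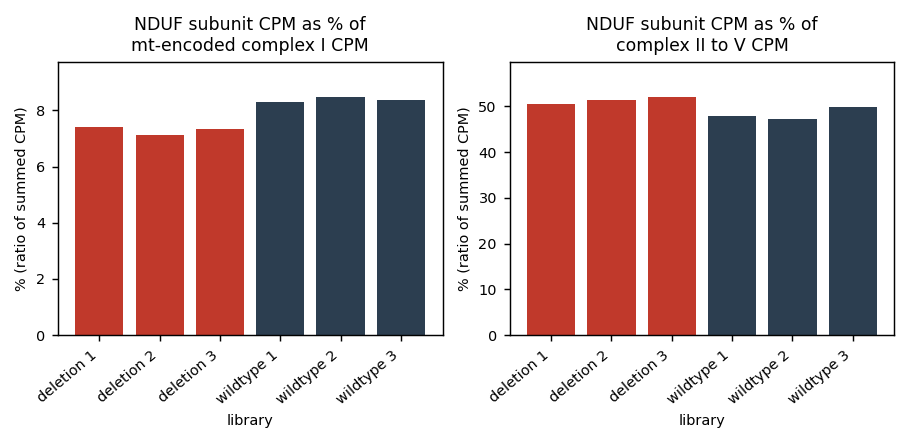
Summed CPM of the 32 NDUF subunits in each library as a percentage of the 7 mitochondrially encoded complex I transcripts (left) and of 34 nuclear subunits of complexes II to V (right). The first ratio is 7.11% to 7.41% in deletion and 8.31% to 8.46% in wildtype libraries, and the second 50.5% to 52.0% in deletion and 47.3% to 49.98% in wildtype libraries.

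In the RefSeq annotation, 7 further NDUF names (NDUFA3, NDUFA7, NDUFA12, NDUFB5, NDUFC1, NDUFS7 and NDUFV3) were not analysed as members. For NDUFB5 and NDUFA7 the table of gene names gave an ID. NDUFB5, a distal membrane arm subunit, had 38.7, 39.04 and 46.1 CPM in the deletion libraries and 37.5, 30.6 and 39.99 CPM in the wildtype libraries (log2 fold change 0.20, SE 0.13). The NDUFA7 ID, listed as lncRNA in the files, had 31.9, 41.1 and 39.7 CPM in the deletion libraries and 43.3, 41.1 and 39.2 CPM in the wildtype libraries (-0.13, SE 0.12). No source here says how reads matching several places, such as processed pseudogenes, were counted, so levels of members with near-identical copies are uncertain.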

How the data were processed

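RNA of integrity number above 6.1 was made into stranded mRNA libraries and read as pairs of 150 bases, per the labels' protocols. Neither labels nor file headers name the aligner, counting tool, genome build or annotation. Deposited per gene were exon read counts, which entered every test with blank cells read as 0. RPKM by the authors was used for levels between genes and for relative exon length, and their TPM was not used. The authors' CPM column is a score on their own scale (the columns do not share 1 total) and was not used. Their deposited table holds a signed fold change with p-values, raw and adjusted, and does not name its test.

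Genes were filtered with filterByExpr, scaled with TMM and compared, deletion over wildtype, with edgeR 4.0.16 (quasi-likelihood, robust) in R 4.3.3, with Benjamini-Hochberg adjustment over all tested genes. Standard errors were derived from the F statistic. The step was tested on simulated data with known changes. It called 4% of 1.25-fold and 42% of 1.5-fold changes at an adjusted p under 0.05. For 2-fold and 3-fold changes it called 90% and 100%. Groups came from the genotype label. Replicate numbers are in accession order and pair no animals. Within-group libraries differed by more than counting error.

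Members and lists were chosen with earlier results of these data known. Named with per-library values were core subunits, NDUFAF genes, the 3 highest and lowest by RPKM, those with an unadjusted p under 0.05, the 3 largest differences each way, NDUFA4 and NDUFA4L2; from the related lists, the pair of genes of lowest p. Other members are given by log2 fold change, and 1 core subunit counted in the totals is not reported here by name. NDUFA2, NDUFC2, NDUFAB1, NDUFB5, NDUFA7, ACAD9, ECSIT and TMEM126B were singled out after their values were seen. Alternatives were DESeq2 1.42.0 size factors and Wald test, limma-voom (limma 3.58.1) with sample weights, filters, the animal-number prefix, removal of mitochondrial genes, a length trend and leaving out each library.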

Additional observations from a re-analysis of the deposited data

How the results depend on the processing

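With 3 animals a group the median subunit interval reached 0.30 (log2) to either side, so the absence of calls among complex I genes does not show equal levels. In 15 alternatives 0 of the 40 members passed an adjusted p of 0.05, the number of subunits above 0 was 25 to 31, and the subunit median kept its sign. Counts of unique exon reads were not run. No paired analysis was possible because the labels give no replicate numbers.

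Over all genes, 1 passed with edgeR, 21 with DESeq2 (19 with its independent filtering at the default level, also tried after the data were seen), 2 without a filter on low counts and 2 with the oligodendrocyte marker mean as a covariate, a setting chosen after the data were seen. Subunits with an unadjusted p under 0.05 numbered 3, against 15 with limma-voom, 7 without a filter, 8 with the animal-number prefix and 16 with the oligodendrocyte covariate. Assembly factors numbered 1, against 0 with DESeq2, 0 with the prefix and 2 with the oligodendrocyte covariate, which also put their median at 0.075. Among all tested genes 7.23% had an unadjusted p under 0.05 in the main fit, 6.67% with DESeq2 and 16.4% with limma-voom. The share was 5.69% without a filter, 8.17% with the prefix and 12.5% with the oligodendrocyte covariate. The cause of these moves was not tested. The sample weights of limma-voom were lowest for deletion replicate 1 (0.44) and wildtype replicate 2 (0.62). Leaving out each library in turn gave 1 to 2 genes over all at an adjusted p of 0.05. At an unadjusted p under 0.05 it gave 1 to 15 subunits and 0 to 1 assembly factors, and 3.26% to 14.1% of all genes. The assembly factor median was then 0.10 to 0.20 and the median of the other assembly factors -0.0078 to 0.077.

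Of the single members, 10 changed sign somewhere, all with small differences. NDUFAF6 (-0.048) and NDUFAF8 (0.11) did so with limma-voom, as did NDUFA2 (0.015, and 0.00236 without a filter). With the oligodendrocyte covariate NDUFA10 stood at 0.038 and NDUFA2 at 0.11. With the length trend removed NDUFA11 stood at -1.9e-05, NDUFB7 at -0.0088 and NDUFB10 at -0.074. NDUFB10 also stood at -2.2e-05 with DESeq2 size factors, -5.2e-05 with the Wald test, -0.0084 with the prefix and -0.00014 without mitochondrial genes. Leaving out each library gave -0.10 to 0.049 for NDUFA10, -0.038 to 0.18 for NDUFA11, -0.21 to 0.15 for NDUFA2, -0.042 to 0.18 for NDUFA4, -0.19 to 0.0096 for NDUFA4L2, -0.023 to 0.19 for NDUFAF1, -0.083 to 0.22 for NDUFAF6, -0.24 to 0.18 for NDUFAF8, -0.089 to 0.13 for NDUFB10 and -0.0044 to 0.23 for NDUFB7.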
